A study of Mus musculus with 23 samples.

Results

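The genes described here encode the subunits of heterotrimeric G proteins and the regulators of G protein signaling (RGS proteins), measured in 23 single neurons of the mouse arcuate hypothalamus. They were chosen by symbol alone: the G alpha genes Gnas, Gnal, Gnai1 to Gnai3, Gnao1, Gnaz, Gnaq and Gna11 to Gna15, the G beta genes Gnb1 to Gnb5, and every gene named Gng or Rgs followed by a number. This gave 48 of the 23400 genes in the table, made up of 13 G alpha, 5 G beta, 10 G gamma and 20 RGS genes.

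The cells came from 2 young adult male mice of mixed background carrying vGLUT2-IRES-Cre and loxSTOPlox-L10-GFP, so that cells with active VGLUT2, the vesicular transporter for glutamate, made Cre and with it a GFP-tagged ribosomal protein. GFP+ neurons were picked by hand after papain digestion, and the polyadenylated RNA of each was amplified with SmartSeq2. The labels give no treatment and no further genotype, and do not tie a cell to a mouse. All 23 cells are therefore 1 group, cells are not replicates, and no p-value was computed. Cells 1 to 15 have titles that begin JCb5.2 and cells 16 to 23 titles that begin JCb6, and the labels do not explain these prefixes. Cells were divided by peptide transcript into 8 Pomc cells (Pomc at 1000 FPKM or more), 5 Kiss1 cells (Kiss1 at 500 FPKM or more) and 10 other cells. FPKM is the number of sequenced fragments divided by the transcript's length and by the size of the library. Each type is a range of 1 measured transcript. Of the Pomc cells 6 had the prefix JCb5.2 and 2 the prefix JCb6, of the Kiss1 cells 1 and 4, and of the other cells 8 and 2.

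The cells carried neuronal transcripts. Of 8 neuronal markers 5 reached 1 FPKM in every cell, while Map2 reached it in 20 cells, Syt1 in 8 and Rbfox3 in 5. Slc17a6, which encodes VGLUT2, reached 1 FPKM in 22 cells. None of the astrocyte, oligodendrocyte, microglial, endothelial or mural markers reached 1 FPKM in 12 or more cells. Of 6 tanycyte and ependymal markers Rax was listed at 0 in every cell, while Vim reached 1 FPKM in 14 cells, Foxj1 in 11, Rarres2 in 6, Frzb in 4 and Col23a1 in 1. Of 4 hemoglobin genes, markers of red blood cells, Hba-a2 reached 1 FPKM in 22 cells and Hbb-b2 in 12, and near-identical copies make the split between these genes uncertain. The 4 summed to a median of 80.9 FPKM in Pomc, 202 FPKM in Kiss1 and 229 FPKM in other cells and to 2395 FPKM in Kiss1 cell 19, and their part in the results was not tested. Cell 12 stood apart with the astrocyte marker Gfap at 165 FPKM and Vim at 258 FPKM. A cell held between 4054 (cell 17) and 8042 (cell 13) genes at 1 FPKM or more, with a median of 7090. Relative sequencing depth, read from the steps of low values, differed 4.21-fold between the shallowest cell (14) and the deepest (20). Kiss1 cells held 4054 to 6708 genes, Pomc cells 6434 to 8042 and other cells 6403 to 7632.

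A G protein is a switch made of an alpha subunit that binds GTP and a tightly joined beta and gamma pair. A receptor bound by its ligand loads the alpha subunit with GTP, and alpha and beta-gamma then act on separate targets: Gs raises cyclic AMP through adenylyl cyclase, Gi/o lowers it and frees beta-gamma for potassium channels, and Gq/11 drives phospholipase C beta. G12/13 forms a further class. RGS proteins end the signal by speeding the hydrolysis of GTP, mostly on Gi/o and Gq/11, and the receptors for melanocortins, opioids, kisspeptin and neuropeptide Y all act through G proteins.

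G protein subunit and RGS transcripts ranged from genes found in every cell to genes found in none. At 1 FPKM or more, 10 of the 48 genes were found in all 23 cells, beside 7.2% of all 23400 genes. These were the alpha genes Gnas, Gnao1, Gnai1, Gnai2 and Gnaq, the beta genes Gnb1, Gnb2 and Gnb5, the gamma gene Gng3, and 1 RGS gene, Rgs4. At 10 FPKM the number fell to 4, Gnas, Gnao1, Gnai2 and Rgs4, and it was 5 when a cell also had to reach 5% of the highest value among cells of its prefix. In 12 or more cells there were 25 of the 48, beside 27.8% of all genes. Another 17 were found in 1 to 11 cells (35.9% of all genes), and 6 in none (36.3%). The families were spread differently over these classes: 9 of 13 alpha, 4 of 5 beta, 5 of 10 gamma and 7 of 20 RGS genes were found in 12 or more cells, while 11 of 20 RGS genes were found in 1 to 11. Detection in 23 of 23 cells has an exact Clopper-Pearson 95% interval for the share of cells that starts at 85.2%, and detection in 0 of 23 one that ends at 14.8%. Both cover the counting of cells only.

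**Figure D1:**
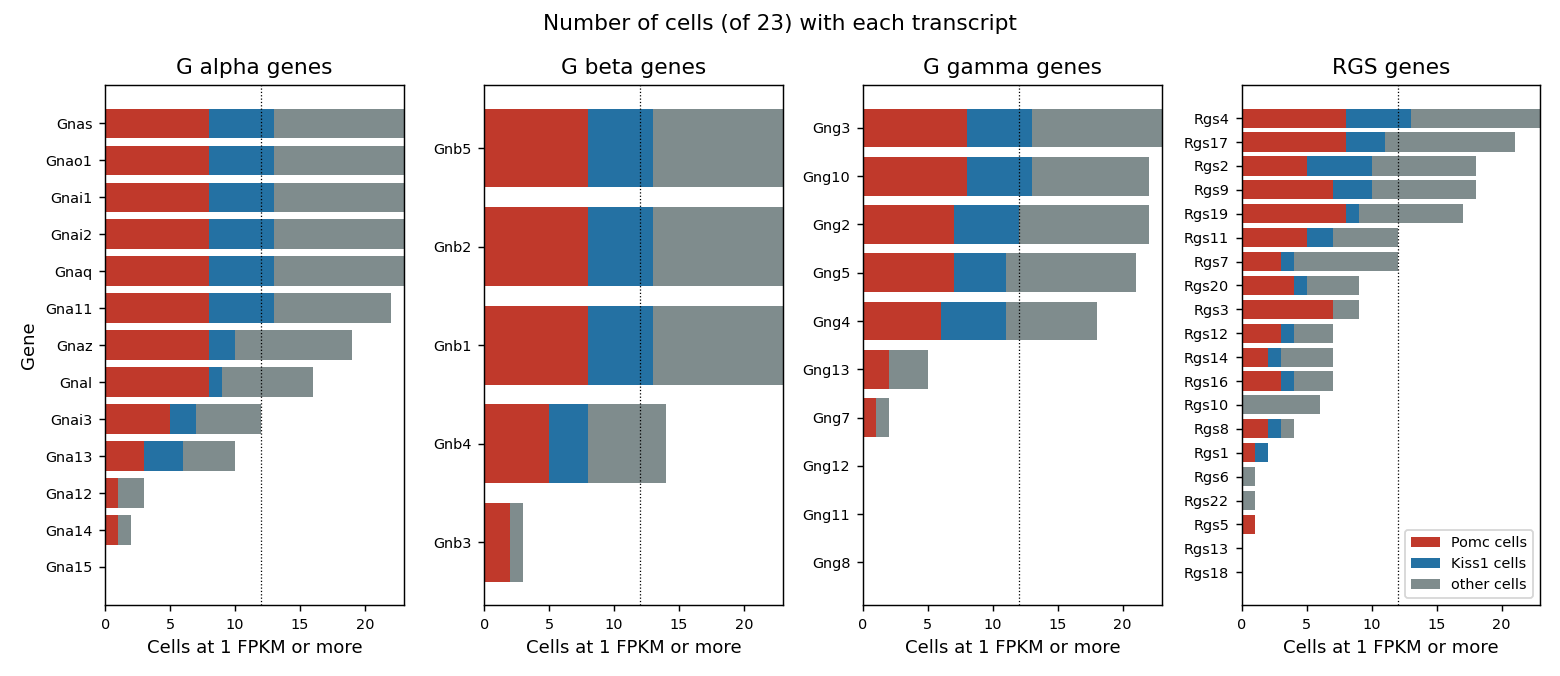
Number of cells at 1 FPKM or more (horizontal axis, 0 to 23) for each gene, in 1 panel per family, with bars divided into Pomc (red), Kiss1 (blue) and other (grey) cells and a dotted line at 12 cells. The 10 full-length bars are the genes found in all 23 cells, and most RGS bars end left of the line.

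The 10 common genes, picked for reaching 1 FPKM in every cell, made up most of the transcript of the whole set. Such a rule favors high genes, and the share was not computed for other genes. They held between 72.8% (cell 19) and 97.5% (cell 13) of the summed FPKM of the 48 genes, with a median of 87.7%. Gnas carried much of this: without it the share of the other common genes ran from 45.1% to 83.2%. The 17 genes found in 1 to 11 cells summed to between 3.92 FPKM in cell 10 and 174 FPKM in cell 20. Each cell nevertheless had at least 1 of these 17 at 1 FPKM or more and at most 7 (cells 2 and 22), and the combination differed in all 23 cells. The 17 were picked for being found in some of these same cells, which makes differing combinations likely. Combinations of other genes were not compared. In total a cell held between 18 (cell 17) and 31 (cell 2) of the 48 genes, with a median of 25. Cell 17 also had the fewest genes of any kind.

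**Figure D2:**
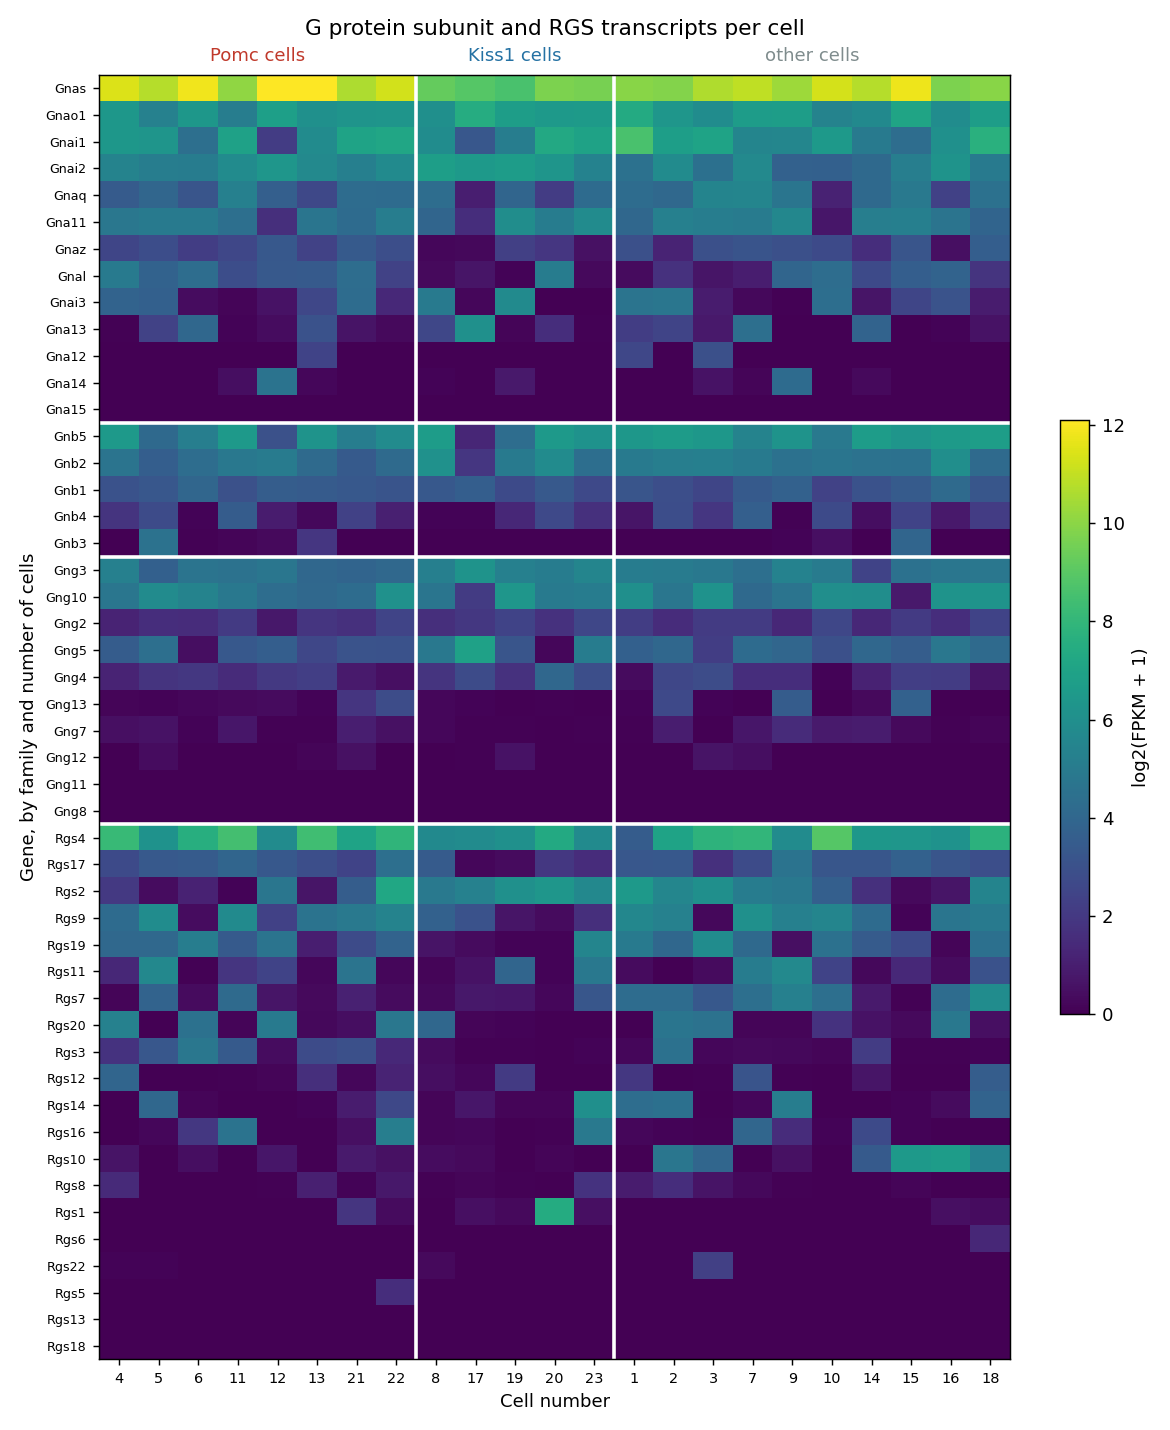
Level of each of the 48 genes (rows, by family and number of cells) in each cell (columns, by peptide type), as log2(FPKM + 1), with white lines between families and between types. The Gnas row is the brightest in every column, and the lower rows of the RGS block hold single bright cells such as Rgs1 in cell 20 at 172 FPKM.

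The values covered the whole range. Of the 1104 values of the 48 genes, 34.3% were at 10 FPKM or more, 17.6% between 1 and 10 FPKM, 23.8% above 0 and under 1 FPKM, and 24.3% listed at 0. Over all genes the corresponding shares were 17.4%, 12.1%, 21.2% and 49.3%. Alpha genes had 50.5% of their values at 10 FPKM or more and RGS genes 25.0%.

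The bases before the transcription start were compared for 36 of the 48 genes, which matched the RefSeq promoter table on GRCm38.p6. The 250 bases upstream of each start were searched for CG and, on both strands, for TATAAA, and for genes with several starts the window with the most CG was taken. The median number of CG was 24 in the 20 genes found in 12 or more cells, 16 in the 12 found in 1 to 11 cells, and 4 in the 4 found in none. All genes of the table followed the same order, with medians of 18, 14 and 3, so the order is not particular to these genes. TATAAA was present in 4 of the 36 windows (11.1%) and in 11.5% of the windows of all genes. A match describes letters only and is no binding site.

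The following 4 windows, with every CG in capitals, are shown because genes found in all cells differed widely in upstream CG. Gnai1 (chr5:18360414-18360663, minus strand), Gnb5 (chr9:75306038-75306287, plus strand) and Rgs4 (chr1:169747643-169747892, minus strand) were found in all 23 cells and have 43, 3 and 13 CG. Rgs13 (chr1:144177373-144177622, minus strand), found in none, has 0 CG. Rgs4 carries TATAAA on the strand shown, and Gnb5 on the opposite strand.
Gnai1: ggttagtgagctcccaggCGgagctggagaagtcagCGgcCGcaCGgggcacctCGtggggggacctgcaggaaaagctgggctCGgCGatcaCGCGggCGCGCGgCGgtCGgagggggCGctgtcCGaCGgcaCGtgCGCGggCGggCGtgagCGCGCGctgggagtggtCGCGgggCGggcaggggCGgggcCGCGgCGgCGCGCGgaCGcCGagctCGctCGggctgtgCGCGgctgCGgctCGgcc
Gnb5: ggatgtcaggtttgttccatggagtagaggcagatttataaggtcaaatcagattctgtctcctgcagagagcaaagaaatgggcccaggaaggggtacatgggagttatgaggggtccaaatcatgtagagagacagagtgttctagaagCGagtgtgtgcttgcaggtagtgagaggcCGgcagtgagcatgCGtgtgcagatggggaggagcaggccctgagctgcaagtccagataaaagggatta
Rgs4: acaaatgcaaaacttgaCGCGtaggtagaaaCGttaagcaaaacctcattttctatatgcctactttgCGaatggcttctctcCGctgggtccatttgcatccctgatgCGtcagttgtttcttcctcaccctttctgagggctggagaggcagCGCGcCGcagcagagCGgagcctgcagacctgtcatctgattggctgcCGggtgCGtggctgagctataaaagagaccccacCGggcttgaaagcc
Rgs13: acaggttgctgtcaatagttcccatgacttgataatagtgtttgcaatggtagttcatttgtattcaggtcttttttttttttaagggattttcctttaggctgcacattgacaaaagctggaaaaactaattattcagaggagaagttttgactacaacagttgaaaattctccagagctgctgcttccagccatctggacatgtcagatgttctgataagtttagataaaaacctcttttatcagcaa

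Gnas, which encodes the stimulatory alpha subunit Gs, was by far the highest of the 48 genes. Its level ran from 395 FPKM in cell 19 over a median of 1537 FPKM to 4382 FPKM in cell 12, and it was the highest alpha gene in 23 of 23 cells. The row lies on chromosome 2 from 174284320 to 174346742 (mm10) on the plus strand and spans the 4 starts that RefSeq lists. Transcripts from these starts are added together, so the value need not be that of Gs alone. The antisense gene Nespas, which overlaps it, was listed at 0 in every cell. Gnal, the Gs-like alpha subunit of the olfactory system and striatum, was found in 16 cells at 0.10 to 33.2 FPKM with a median of 6.32 FPKM, and made up at most 3.84% of the Gs class in any cell (cell 20).

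The inhibitory alpha genes were the next most abundant. Gnao1, the alpha subunit most abundant in brain as protein, had 33.7 FPKM in the lowest cell (11), a median of 82.9 FPKM and 176 FPKM in the highest (17). Gnai1 ranged more widely, from 3.38 FPKM in cell 12 over a median of 77.6 FPKM to 395 FPKM in cell 1. Gnai2 ran from 12.1 FPKM in cell 10 over 41.4 FPKM to 110 FPKM in cell 8. Which of these led the class varied from cell to cell: Gnai1 was highest in 12 cells, Gnao1 in 9 and Gnai2 in 2. Gnaz, a Gi-like subunit resistant to pertussis toxin, was low but frequent, with 19 cells and at most 11.3 FPKM. Gnai3 was found in 12 cells, at up to 53.8 FPKM in cell 19.

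Both widespread Gq/11 genes were present side by side. Gnaq was found in 23 cells, at 1.01 to 44.6 FPKM with a median of 16.7 FPKM, and Gna11 in 22 cells, at 0.661 to 60.0 FPKM with a median of 30.0 FPKM. The relatives Gna14 and Gna15 were rare: Gna14 reached 17.9 FPKM in cell 9 and 23.5 FPKM in cell 12 and was below 1 FPKM elsewhere, and Gna15, known from blood cells, was listed at 0 in every cell. Of the G12/13 genes, Gna13 was found in 10 cells and was highest in cell 17 at 65.4 FPKM, and Gna12 was found in 3 cells (1, 3 and 13) at up to 6.78 FPKM. At 1 FPKM, 11 cells held all 4 alpha classes, and the other 12 lacked only G12/13. At 10 FPKM the number with all 4 classes was 3.

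**Figure D3:**
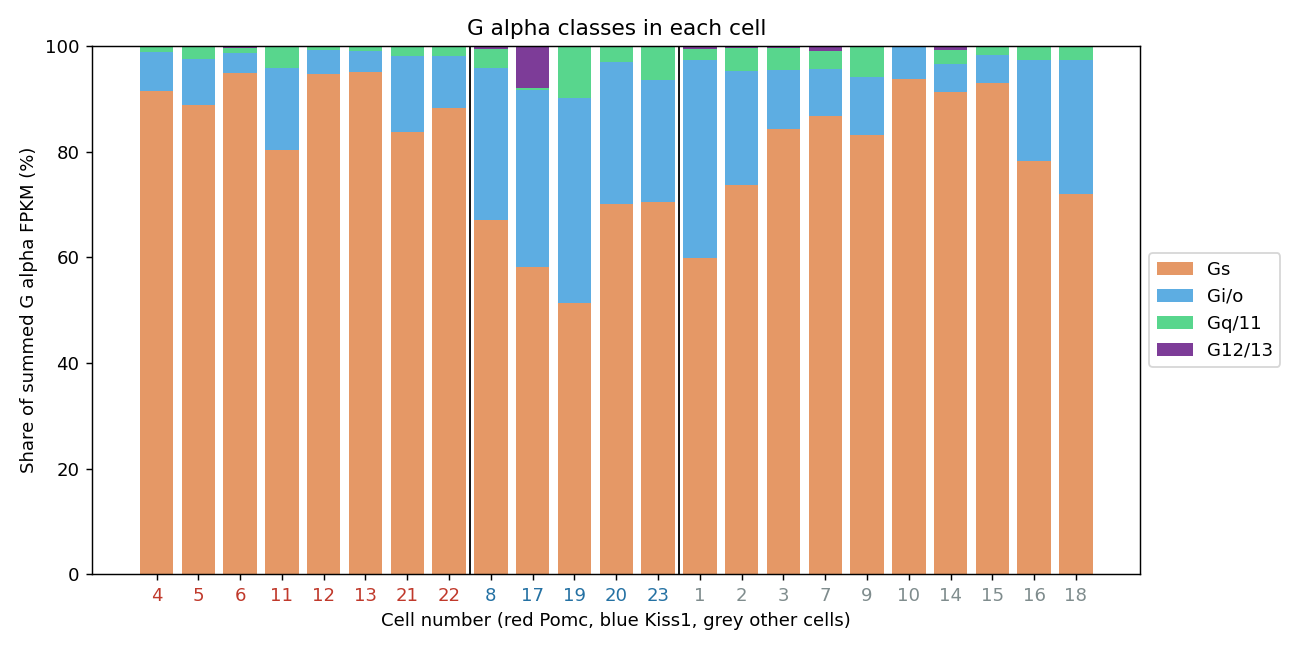
Share of each alpha class in the summed G alpha FPKM of each cell (vertical axis, percent), with cells ordered by peptide type. Gs takes between 51.4% and 95.1%, and the Gi/o segment is taller in each of the 5 Kiss1 cells than in any of the 8 Pomc cells.

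The beta genes were led by Gnb5, which encodes the divergent beta subunit that pairs with RGS proteins of the R7 subfamily. Gnb5 had 1.47 FPKM in cell 17, a median of 74.1 FPKM and 107 FPKM in cell 18. It was the highest beta gene in 19 cells, and in 17 cells it exceeded the sum of Gnb1 to Gnb4. Gnb2 ran from 2.81 FPKM in cell 17 over 24.2 FPKM to 68.4 FPKM in cell 8, and Gnb1 from 4.30 FPKM in cell 10 over 8.79 FPKM to 16.9 FPKM in cell 16. These are the conventional partners of gamma subunits, and Gnb1 had the smallest ratio of highest to lowest value of the 4 most widespread beta genes. Gnb4 was found in 14 cells, at 0.0363 to 11.8 FPKM with a median of 2.17 FPKM. Gnb3, the beta subunit of cone photoreceptors, was found in cells 5, 13 and 15 at 22.6, 2.80 and 14.6 FPKM, and was the highest beta gene in cell 5.

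Among the gamma genes, which anchor the pair to the membrane, 3 took turns at the top. Gng10 was highest in 13 cells, Gng3 in 9 and Gng5 in cell 17 alone. Gng3, a gamma gene of neurons, had 4.39 FPKM in cell 14, a median of 27.0 FPKM and 73.2 FPKM in cell 17. Its annotated exons share 24.2% of their bases with exons of Bscl2 on the opposite strand, which had a median of 189 FPKM, and without strand the reads of such bases cannot be told apart. Gng10 had 0.797 FPKM in cell 15, a median of 30.4 FPKM and 80.5 FPKM in cell 19, and 72.0% of its exon bases also belong to an annotated read-through gene on the same strand. Gng5 ran from 0.160 FPKM in cell 20 over 11.4 FPKM to 119 FPKM in cell 17, where the next highest cell (23) had 33.3 FPKM.

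Gng2 was the steadiest of the widespread gamma genes, with 22 cells and a range of 0.696 to 5.01 FPKM around a median of 2.60 FPKM. Gng4 was found in 18 cells at up to 15.4 FPKM, in cell 20. Gng13, the gamma subunit of taste cells, was found in 5 cells (2, 9, 15, 21 and 22), at up to 12.5 FPKM in cell 15. Gng7, known as the partner of Gnal in striatum, was found in 2 cells at up to 1.77 FPKM. Gng12 had a value above 0 in all 23 cells but never more than 0.535 FPKM, and Gng8 and Gng11 were listed at 0 throughout.

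The RGS genes were led by Rgs4, an R4 subfamily member that acts on Gi/o and Gq/11. Rgs4 lies on chromosome 1 from 169741477 to 169747642 on the minus strand. It had 10.6 FPKM in cell 1, a median of 128 FPKM and 472 FPKM in cell 10, and was the highest RGS gene in 17 cells. In the other 6 cells the lead passed to Rgs2 (cells 1 and 19), Rgs10 (15 and 16), Rgs14 (23) or Rgs1 (20). Rgs2, an R4 member with a preference for Gq, was found in 18 cells at 0.0693 to 145 FPKM around a median of 28.1 FPKM. It was high in cell 22 and close to 0 in cell 11.

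The RZ subfamily, which acts on Gz and Gi, was represented by Rgs17, Rgs19 and Rgs20. Rgs17 was found in 21 cells, at 0.170 FPKM in cell 17, 8.36 FPKM in the median and 23.1 FPKM in cell 9. Rgs19 was found in 17 cells at up to 57.2 FPKM (cell 3), and Rgs20 in 9 cells at up to 38.4 FPKM (cell 4).

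The R7 subfamily consists of Rgs6, Rgs7, Rgs9 and Rgs11, whose proteins depend on Gnb5 for their stability. Rgs9, the striatal and retinal member, was found in 18 cells, from 0.0707 FPKM in cell 15 over 23.1 FPKM to 66.2 FPKM in cell 7. Rgs7 and Rgs11 were each found in 12 cells, at up to 57.3 FPKM (cell 18) and 50.9 FPKM (cell 9), and Rgs6 in cell 18 alone at 1.52 FPKM. An R7 gene together with Gnb5 was present in 21 cells, all but cells 6 and 20. Since Gnb5 was found in every cell, this count is that of cells with any R7 gene and does not bear on pairing. At 10 FPKM for both it was 17. Rgs9 was the only R7 gene at 1 FPKM in 5 cells, Rgs11 in 2 and Rgs7 in 1, and 11 of the 12 cells with Rgs7 also had Rgs9. Rgs7bp, the membrane adapter of these complexes, was found in 13 cells, and each of these 13 had Rgs9.

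Some genes were high in a few cells and under 1 FPKM in most. A total of 8 of the 48 genes reached 10 FPKM in some cell yet 1 FPKM in no more than 8 cells, a share of 16.7%, near the 14.3% of all genes: Gna14, Gnb3, Gng13, Rgs1, Rgs10, Rgs12, Rgs14 and Rgs16. Rgs10, Rgs12 and Rgs14 form the R12 subfamily, which acts on Gi. Rgs10 was found in 6 cells, at 9.69 FPKM in cell 14, 15.0 FPKM in cell 3, 26.3 FPKM in cell 2, 39.8 FPKM in cell 18, 90.2 FPKM in cell 15 and 102 FPKM in cell 16. The 17 remaining cells were below 1 FPKM, so the values fall into separate high and low groups. The summed FPKM of the 6 markers of microglia, a cell type in which Rgs10 is abundant, was 0.0729 to 0.477 in these 6 cells. Over all cells the sum ran from 0.0729 to 8.86 FPKM, and a microglial part in the Rgs10 values was not tested.

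Rgs14 was found in 7 cells and was highest in cell 23 at 64.6 FPKM, followed by cell 9 at 33.6 FPKM. Rgs12 was found in 7 cells at up to 14.6 FPKM (cell 4), and Rgs16, an R4 member, in 7 cells at up to 34.9 FPKM (cell 22). Only in cell 22 were Rgs12, Rgs14 and Rgs16 all at 1 FPKM or more, at 1.28, 5.07 and 34.9 FPKM. Rgs3, another R4 member, was found in 9 cells at up to 27.2 FPKM (cell 6), and Rgs8 in 4 cells at up to 2.37 FPKM.

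Rgs1, an R4 member best known from lymphocytes, stood out by a single cell. It had 172 FPKM in cell 20, where it exceeded Rgs4 (162 FPKM), and 2.70 FPKM in cell 21. The other 6 cells with the prefix JCb6 had values between 0.223 and 0.427 FPKM, while all 15 cells with the prefix JCb5.2 were listed at 0. A low value shared by all cells of 1 prefix therefore went with the high cell, and the source of these low values was not tested. The summed level of the 6 microglial markers in cell 20 was 0.0940 FPKM, against a range of 0.0729 to 8.86 FPKM over all cells. Markers of lymphocytes were not among the lists, and the source of the Rgs1 value in cell 20 was not tested. The remaining RGS genes were at the edge of detection: Rgs22 at 3.92 FPKM in cell 3, Rgs5, a pericyte marker, at 2.02 FPKM in cell 22, and Rgs13 and Rgs18 at 0 in every cell. The 5 mural markers summed to 2.52 FPKM in cell 22, against a range of 0.0721 to 3.68 FPKM over all cells, and their part in the Rgs5 value was not tested.

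Of the 48 genes, 9 pairs of neighbours lie within 500 kb of each other, and other neighbouring genes of the table were not compared. Of the 20 RGS genes 10 lie on chromosome 1. Rgs4 and Rgs5 are 48.0 kb apart, and were found in 23 cells and 1 cell. Rgs2, Rgs13 and Rgs1 follow each other with gaps of 135 and 67.3 kb, and were found in 18, 0 and 2 cells. Rgs8 and Rgs16 are 42.7 kb apart and were found in 4 and 7 cells, with 1 cell in common (cell 23). Of the alpha genes, Gnaq and Gna14 are 48.2 kb apart on chromosome 19, with 23 and 2 cells, and Gna15 and Gna11 4.51 kb apart on chromosome 10, with 0 and 22 cells. Rgs9 and Gna13, 64.6 kb apart on chromosome 11, were found in 18 and 10 cells, 8 of them shared. The pair Gng7 and Gna15, 487 kb apart, was found in 2 and 0 cells, and the pair Gng13 and Rgs11, 484 kb apart, in 5 and 12 cells, 3 of them shared.

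Across the peptide types, G protein subunit and RGS genes differed about as often as other genes did. Medians of log2(FPKM + 1) were compared for the 36 of 48 genes that reached 1 FPKM in at least 3 cells, and a gene was called where the medians of a pair of types were at least 1 apart. The 3 pairs share cells and are not independent. In Pomc cells 4 genes were higher than in other cells (Gnal, Rgs3, Rgs4 and Rgs20), beside 12.1% of all 11697 genes compared, and 4 were lower (Gng10, Rgs2, Rgs7 and Rgs10), beside 9.69%. In Kiss1 cells 2 genes were higher than in other cells (Gnai2 and Gng4), beside 7.94%, and 9 were lower (Gnas, Gnal, Gnaz, Gnai3, Rgs7, Rgs9, Rgs10, Rgs17 and Rgs19), beside 23%. Between Pomc and Kiss1 cells 11 genes were higher in Pomc cells (Gnas, Gnal, Gnaz, Gnai3, Rgs3, Rgs4, Rgs9, Rgs11, Rgs17, Rgs19 and Rgs20), beside 26.2%, and 4 were lower (Gna13, Gng4, Gng5 and Rgs2), beside 8.38%. In either direction 8, 11 and 15 genes were called in the 3 pairs, beside 21.8%, 30.9% and 34.6% of all genes.

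The shares of called genes were 11.1% and 11.1% for Pomc against other cells, 5.56% and 25.0% for Kiss1 against other cells, and 30.6% and 11.1% for Pomc against Kiss1 cells, and so lay near those of all genes. The median difference over the 36 genes was -0.07, -0.13 and 0.03 in these 3 comparisons, against 0.02, -0.07 and 0.16 over all genes. The lower number of genes found in Kiss1 cells went with their larger number of lower calls, and its part in them was not tested.

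Gnas was the only alpha gene that separated a pair of types without overlap. It had 612, 475, 395, 832 and 790 FPKM in the Kiss1 cells 8, 17, 19, 20 and 23, and in Pomc cells a lowest value of 1098, a median of 2645 and a highest value of 4382 FPKM. Other cells lay between and overlapped both, at 825 to 3494 FPKM with a median of 1442 FPKM. The difference of medians between Pomc and Kiss1 cells was 2.11 on the log2 scale, with an SD within type of 0.73 and 0.46. Among cells of the prefix JCb6 alone it was 1.67. Values did not overlap for Gnas and Rgs3 in this pair, 2 of the 36 genes beside 0.71% of all genes. No gene of the 36 was lower in Pomc than in Kiss1 cells without overlap (0.18% of all genes). Against other cells none stood apart without overlap in Pomc cells, higher (0.0171%) or lower (0%), or in Kiss1 cells, higher (0.094%) or lower (0.145%).

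Between Kiss1 and other cells the Gnas difference of -1.23 shrank to -0.57 within the prefix JCb6, where 4 of the 5 Kiss1 cells but 2 of the 10 other cells lie. How much of the difference goes with the prefix and how much with the type cannot be told apart. Gnai2 was the alpha gene that stood higher in Kiss1 cells, with 110, 89.3, 102, 78.2 and 40.6 FPKM in cells 8, 17, 19, 20 and 23 against 12.1 to 73.8 FPKM (median 26.1) in other cells. That difference was 1.75 on the log2 scale over all cells and 0.81 within JCb6.

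The shares of the alpha classes also differed between Pomc and Kiss1 cells, but they rest in large part on Gnas, because Gnal made up at most 3.84% of the Gs sum. Gi/o genes made up 23.1% to 38.8% of alpha FPKM in the 5 Kiss1 cells and 3.66% to 15.6% in the 8 Pomc cells, without overlap, and 5.31% to 37.6% in other cells. Summed Gi/o FPKM itself overlapped, at 259 to 331 in Kiss1 and 140 to 282 in Pomc cells, while summed Gs FPKM was 395 to 865 in Kiss1 and 1104 to 4392 in Pomc cells. Of these sums, that of Gs alone did not overlap between Pomc and Kiss1 cells. The Gi/o share had a median of 8.58% in cells of the prefix JCb5.2 and 24.2% in those of JCb6, where 4 of the 5 Kiss1 cells lie. The 2 Pomc cells of JCb6 had 14.4% and 9.97%.

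Gnal was found in 8 of 8 Pomc cells, 7 of 10 other cells and 1 of 5 Kiss1 cells. Its level was 4.14 to 29.8 FPKM (median 11.2) in Pomc cells, and 0.225, 0.592, 0.10, 33.2 and 0.239 FPKM in the Kiss1 cells 8, 17, 19, 20 and 23. Cell 20 thus had the highest value of all 23 cells while the other 4 Kiss1 cells were below 1 FPKM. The difference of medians between Pomc and Kiss1 cells was 3.29. Between Pomc and other cells it was 1.34 over all cells and 0.50 within JCb6, under the limit of 1, and 0.60 with a pseudocount of 10.

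**Figure D4:**
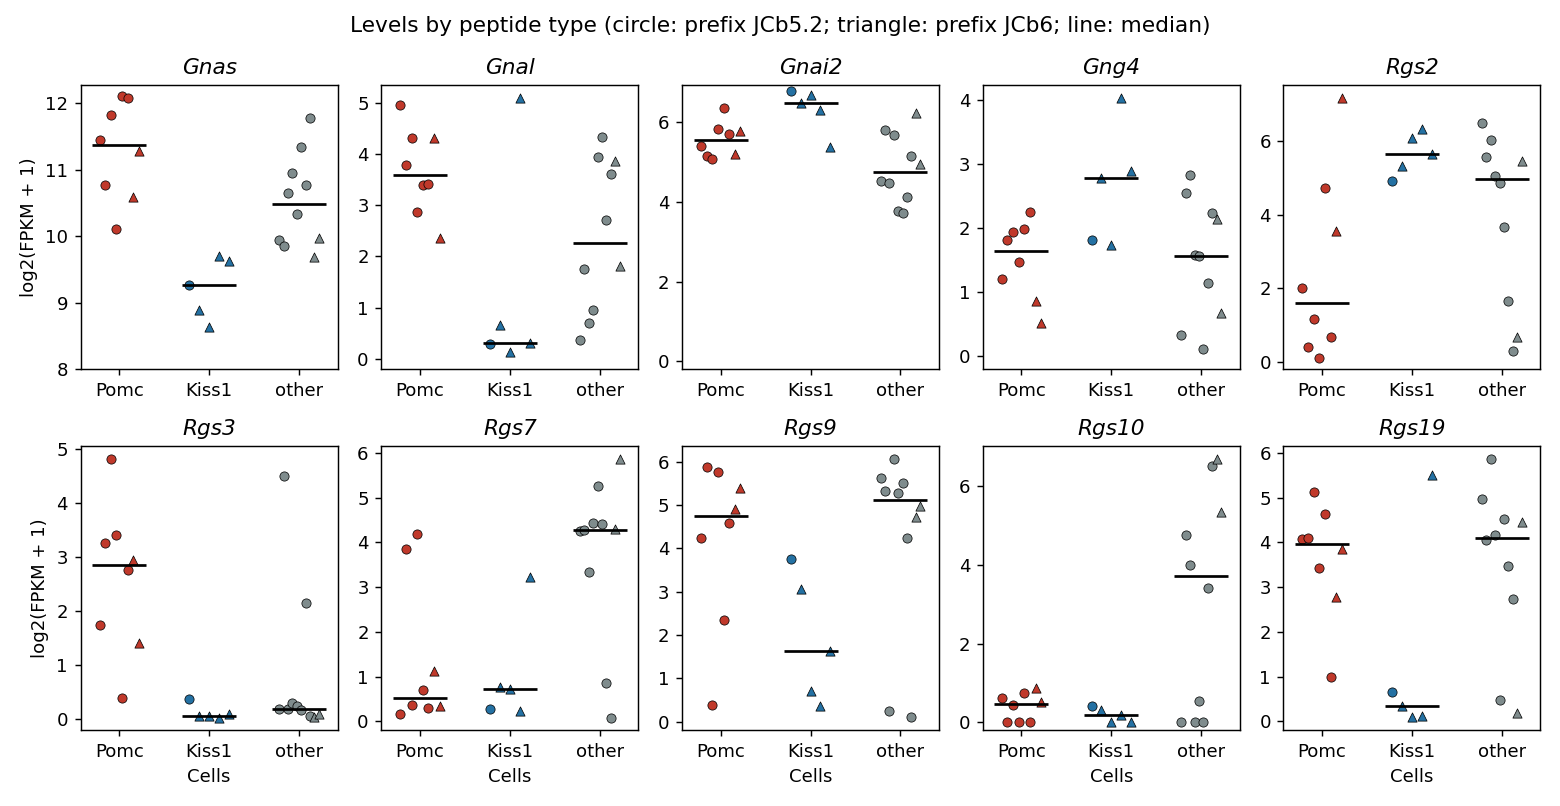
Level of 10 genes named by the type comparison, as log2(FPKM + 1), in Pomc (red), Kiss1 (blue) and other (grey) cells, 1 point per cell (circles: prefix JCb5.2, triangles: prefix JCb6) with a line at each median. The Gnas axis starts at 8, and the Kiss1 points of Gnas lie below all Pomc points, while most other panels overlap.

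Rgs2 and Rgs3 ran in opposite directions. Rgs2 was present in 5 of 5 Kiss1 cells, at 29.1, 39.3, 66.8, 80.7 and 49.9 FPKM, and in 5 of 8 Pomc cells, at 0.0693 to 145 FPKM with a median of 2.15 FPKM. The difference of medians between Pomc and Kiss1 cells was -4.08, and -0.51 within the prefix JCb6, whose 2 Pomc cells had 10.7 and 145 FPKM. Against other cells, the difference for Rgs2 in Pomc cells was -3.37, which turned to 2.30 within JCb6 (2 cells of each type) and was -4.04 within JCb5.2.

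Rgs3 was found in 7 of 8 Pomc cells, 2 of 10 other cells (2 and 14) and 0 of 5 Kiss1 cells. Its level in Pomc cells was 0.323 to 27.2 FPKM with a median of 6.26 FPKM, and in Kiss1 cells at most 0.299 FPKM, so the absence of overlap rests on cell 12 at 0.323 FPKM against cell 8 at 0.299 FPKM. The difference between Pomc and other cells was 2.66 over all cells, 2.79 within JCb5.2, 2.10 within JCb6 and 0.68 with a pseudocount of 10.

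Rgs7 and Rgs10 had their highest medians in the other cells. Rgs7 was found in 8 of 10 other cells at a median of 18.4 FPKM, in 3 of 8 Pomc cells and in 1 of 5 Kiss1 cells (cell 23, 8.40 FPKM). Rgs10 was found in 6 of 10 other cells and in none of the 13 Pomc and Kiss1 cells, where its highest value was 0.824 FPKM. The differences of medians against other cells were -3.75 and -3.23 for Rgs7 and Rgs10 in Pomc cells, and -3.56 and -3.53 in Kiss1 cells. For Rgs10 in Pomc cells the difference was -1.77 within JCb5.2, -5.32 within JCb6 and -1.09 with a pseudocount of 10. For Rgs7 in Pomc cells the same settings gave -3.74, -4.35 and -1.44. The SD of log2 values of Rgs10 within the other cells was 2.76, and 4 of those 10 cells were below 1 FPKM.

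Rgs9, Rgs19 and Rgs17 had lower medians in Kiss1 cells than in both other types. Rgs19 was found in 8 of 8 Pomc, 8 of 10 other and 1 of 5 Kiss1 cells, and that 1 cell (23) had 44.0 FPKM. Rgs9 was found in 7 of 8 Pomc, 8 of 10 other and 3 of 5 Kiss1 cells, at medians of 26.1, 34.1 and 2.12 FPKM. The differences between Pomc and Kiss1 cells were 3.62 for Rgs19, 3.11 for Rgs9 and 1.82 for Rgs17. For Rgs19 and Rgs9 they were 3.09 and 3.98 within JCb6, and 1.26 and 1.57 with a pseudocount of 10. With limits of 2000 FPKM for Pomc and 1000 FPKM for Kiss1 they were 3.75 and 1.18.

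Rgs20 was found in 4 of 8 Pomc cells, 4 of 10 other cells and 1 of 5 Kiss1 cells. Its median in Pomc cells, 11.0 FPKM, lay in a gap between 4 cells at 21.5 to 38.4 FPKM and the rest at 0.378 FPKM or less. The Rgs20 difference of medians between Pomc and other cells, which depends on that gap, was 1.93 over all cells, 1.94 within JCb5.2 and -0.02 within JCb6. Gng4 was found in all 5 Kiss1 cells, at 2.51, 5.89, 2.35, 15.4 and 6.42 FPKM in cells 8, 17, 19, 20 and 23, against a median of 1.97 FPKM in other cells and 2.15 FPKM in Pomc cells. Gng5 had a median of 28.0 FPKM in Kiss1 cells and 8.23 FPKM in Pomc cells, and the Kiss1 values spanned 0.160 to 119 FPKM. Its difference of -1.66 between Pomc and Kiss1 cells was under the limit of 1 when a single Kiss1 cell was left out, at -0.95 without cell 8 and -0.83 without cell 17 or cell 23.

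Of the 10 common genes, Gnao1, Gnai1, Gnaq, Gnb1, Gnb2, Gnb5 and Gng3 were called in none of the 3 comparisons, a share of 70.0% beside 77.9% of all 1685 genes found in every cell, and Gnas, Gnai2 and Rgs4 were called in at least 1. Gnao1, for example, had medians of 77.2, 94.98 and 90.4 FPKM in Pomc, Kiss1 and other cells, and Gnb1 medians of 8.87, 9.04 and 8.24 FPKM. Markers of tanycytes and ependymal cells, led by Vim, summed to 0.668 to 259 FPKM in Pomc cells, 1.40 to 53.9 FPKM in Kiss1 cells and 0.317 to 78.1 FPKM in other cells, and their part in the type differences was not tested.

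Targets and partners of G proteins were taken from lists of the pathway. All 6 subunit genes of protein kinase A were found in 12 or more cells and 4 of them in all 23, among them Prkar1a at a median of 197 FPKM and Prkar1b at 186 FPKM. Of the 9 adenylyl cyclases 3 were found in 12 or more cells, led by Adcy3 (17 cells) and Adcy5 (14 cells). Of the 4 phospholipase C beta genes, the targets of Gq/11, none was found in 12 or more cells, and the most frequent, Plcb1, was found in 9.

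Of the 4 potassium channel genes opened by beta-gamma, Kcnj9 was found in 17 cells and Kcnj3 in 12. Of 7 receptor kinases and arrestins 4 were found in 12 or more cells, led by Adrbk1 and Arrb2 with 19 each, and of 7 non-receptor regulators measured 3 were, among them Ric8b, a chaperone and exchange factor for alpha subunits, and the activator Gpsm1 with 17 each. Between types, Plcb1 was higher in Pomc than in other cells by 2.05 and than in Kiss1 cells by 2.08, and Kcnj3 by 3.72 and 4.05. Of all genes 12.1% and 26.2% were called higher there. Of Plcb3, Kcnj5, Kcnj6 and Kcnj9, only Kcnj9 was called in these pairs, against Kiss1 cells (1.17). Other lists held calls too, such as Arrb1 (1.71) and Arrb2 (-1.02) in Pomc against other cells, and Adrbk2 (2.54) and Prkar2b (-3.63) in Kiss1 against other cells. Of the non-receptor regulators 3 of the 5 compared were lower in Kiss1 than in other cells, with differences of -1.82 for Gpsm1, -4.71 for Ric8b and -1.89 for Rgs7bp, beside the 23% of all genes called lower there.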

How the data were processed

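Each library was made from 1 neuron. Per the submitters' processing notes, CASAVA 1.8, TopHat and Cufflinks were used with mm10. For other versions, the annotation and the strand setting, details were not given in the sources used here. FPKM per gene and cell, without counts, were deposited by the authors, so the absolute depth is unknown and amplified copies count as reads. Of 23896 rows, 12 without a gene and 286 identical copies were left out, rows of 1 symbol were summed, and no gene described here had several rows.

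A gene was counted in a cell at 1 FPKM. Types were compared by medians of log2(FPKM + 1). The pseudocount of 1 understates changes of low genes. On simulated data of 1500 genes, the comparison of Pomc with other cells called 200 of 200 genes changed by 2 on the log2 scale and 0 of the others. The simulated levels were those of genes found in all 23 cells. Their noise was set below the SD within type of genes such as Rgs2 (2.49 in Pomc and 2.29 in other cells). The simulation therefore checks the calculation and gives no error rate for the calls reported here. Genes named with full values are the 4 in most cells per family, those at 10 FPKM in some cell but 1 FPKM in at most 8 cells, and up to 3 per direction and pair of types. Members, lists and rules were chosen with earlier results of these data known. Exon overlaps and strand come from GENCODE M21. Software was matplotlib 3.10.9, scipy 1.17.1, pandas 2.3.3 and numpy 2.4.6 under Python 3.11.15.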

Additional observations from a re-analysis of the deposited data

How the results depend on the processing

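At 10 FPKM, 4 genes were found in all 23 cells, 15 in 12 or more cells and 13 in none, and 3 cells held all 4 alpha classes. With the added demand of 5% of the highest value of the prefix, 5 genes were found in all cells. In cells of the prefix JCb6 alone, 10 genes were found in none. The number of genes called for Pomc against other cells, 8 as reported, was 3 with a pseudocount of 10 (3.89% of all genes under that setting) and 13 within JCb6 (41.9%). For Kiss1 against other cells, 11 as reported, it was 6 with a pseudocount of 10 (10.9%) and 17 with limits of 2000 FPKM for Pomc and 1000 FPKM for Kiss1 (36%), and between 10 and 15 when each Kiss1 cell was left out in turn. For Pomc against Kiss1 cells, 15 as reported, it was 7 with a pseudocount of 10 (11.2%) and between 11 and 16 when each Kiss1 cell was left out. Within JCb6, with 2 cells of each type, the differences between Pomc and other cells turned to 2.30 for Rgs2 and to -0.0192 for Rgs20. Of 166 recomputed differences of 19 gene and type pairs, 146 moved by less than 1 SD within type, 18 by more, and the 2 just named changed sign. This SD was wide for some genes, such as 2.30 for Rgs20 beside a difference of 1.93 between Pomc and other cells. A difference could therefore fall under 1 and still count among the 146, as that of Gnal between Pomc and other cells did within JCb6 (0.50). Gng4 fell under the difference of 1 in 5 settings against other cells and in 6 against Pomc cells. Leaving out cell 17, an alternative chosen after seeing the data, changed no count of genes found. No paired analysis was possible because all cells form 1 group. Depth differed between cells, so a gene listed at 0 in a cell was not detectable there, which does not show that it was absent.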
